A study of Triticum aestivum with 2 samples.

Results

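The probe sets described here read wheat transcripts for the RUBISCO small subunit, RUBISCO activase and carbonic anhydrase. They are the 13 probe sets, of 61115 wheat probe sets on the array, whose names belong to the design clusters of these 3 families or which the study listed under one of these functions. This gave 6 probe sets for the small subunit, 3 for the activase and 4 for carbonic anhydrase, from 8 gene copies, a copy being a numbered member of a design cluster. The small subunit cluster and the carbonic anhydrase cluster each hold copies 1, 2 and 3, the activase has 1 copy, and the small subunit TaAffx.52923.1 stands outside the main cluster. The study's lists were made from these same 2 hybridizations, by signal and Present calls. The 7 listed members were therefore chosen for their WT signal, and their position above the WT threshold is a description. The other 6 members were taken in by the name of their cluster, and each of those clusters also holds listed members, so they are not free of that choice.

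RUBISCO fixes carbon dioxide in the chloroplast. Its small subunit is encoded by a family of nuclear genes, made in the cytosol and imported into the chloroplast, whereas the large subunit is a plastid gene. RUBISCO activase, also nuclear, removes inhibitory sugar phosphates from the active site and so keeps the enzyme working, and carbonic anhydrase interconverts carbon dioxide and bicarbonate. Their messenger RNAs are among the most abundant in green leaves.

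'Chinese Spring' wheat gave total RNA from 5 tissues, mixed before labelling. The tissues were seed germinated in the dark, shoot, flag leaf, and spikes before and after anthesis, so no value belongs to a single tissue. One portion was labelled by the WT (Whole Transcript) assay, which primes at random and labels the strand that reports antisense transcripts, and another by the 3'IVT (3' in vitro transcription) assay, which primes with oligo(dT) and is the regular assay for sense transcripts. Each went onto its own Wheat Genome Array, and with 1 array per assay there is neither a replicate error nor a test for any value below. The only measure of spread is that between spiked-in control probe sets that read one region of a control gene, with an SD of 0.26 log2 units in the WT assay and 0.32 in the 3'IVT assay (27 probe sets of 9 regions). Each array was scaled by itself, so the WT and 3'IVT signals of a probe set are given side by side and not as levels on one scale. Probes differ in how well they bind, and a higher signal at another probe set is not by itself a more abundant transcript.

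A probe set was called above threshold when its signal exceeded that of the lowest of the 9 probe sets for bioB, a bacterial transcript spiked in near the limit of detection. This threshold was a log2 signal of 15.19 in the WT assay, 7.18 log2 units above the median of the wheat probe sets, and 9.69 in the 3'IVT assay, 3.07 above that median. Of the 13 members, 8 were above the WT threshold, 9 above the 3'IVT threshold and 6 above both. Over all wheat probe sets 0.367% were above the WT threshold, 17.3% above the 3'IVT threshold and 0.208% above both, but the members' counts cannot be read against these shares because the WT signal chose 7 of them. The WT count depended on the threshold, with 4 members above the median of the 9 bioB probe sets and 2 above the highest, while 9 stayed above each of these in the 3'IVT assay. Of the 6 unlisted members, 1 was above the WT threshold and 4 above that of the 3'IVT assay. The unlisted member above the WT threshold was an activase probe set of the same design sequence as a listed one. Among all members 2 were above the WT threshold alone (0.159% of all wheat probe sets), 3 above that of 3'IVT alone (17.1%) and 2 above neither. The median member had a log2 signal of 15.77 in the WT assay, against 8.01 over all wheat probe sets, and of 14.59 in the 3'IVT assay, against 6.63. As a partial check of the pooled tissues, both annotated probe sets of the photosynthetic protein PsbP were above the 3'IVT threshold. So were 3 of 11 for the grain storage proteins gliadin and glutenin, beside 17.3% of all wheat probe sets. The median gliadin or glutenin probe set had a 3'IVT log2 signal of 7.74, which is under that threshold. PsbP was not among the markers planned. The planned chlorophyll a/b binding proteins for leaf and alpha-amylase for germinated seed were not counted, so germinated seed has no marker here.

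**Figure D1:**
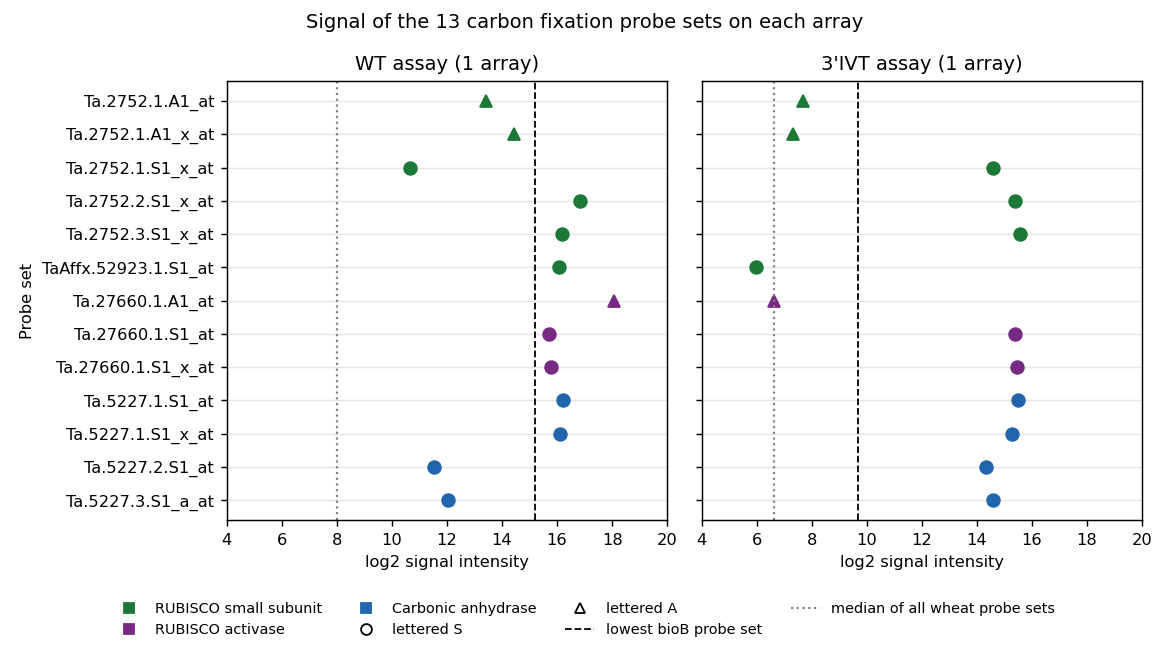
The log2 signal intensity (horizontal axis) of each of the 13 probe sets (rows) on the WT array (left) and the 3'IVT array (right), coloured by family, with circles for S-lettered and triangles for A-lettered probe sets. Dashed lines mark the lowest bioB probe set and dotted lines the median of all wheat probe sets. On the WT array the members spread from 10.66 to 18.08, while on the 3'IVT array 9 S-lettered probe sets lie between 14.33 and 15.57 and the other 4 members between 5.99 and 7.69.

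The members did not share one pattern. A first pattern, strong in both assays, was shown by 6 S-lettered probe sets of 4 gene copies. The letter S or A in a name gives the sense or antisense orientation of the design sequence, so an A-lettered set with the correct orientation detects sense transcripts when the WT assay is used. A second pattern, strong in the 3'IVT assay but under the WT threshold, was shown by 3 S-lettered probe sets of 3 further copies from the same clusters. Their WT signals were above the array median. The remaining 4 members, 3 of them A-lettered, were below the 3'IVT threshold and well above the array median in the WT assay.

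The small subunit cluster contained both of the first patterns, each copy being read by 1 S-lettered probe set. Copy 2 had a signal of 115840 (log2 16.82) in the WT assay and 42667 (log2 15.38) in the 3'IVT assay. Copy 3 (Ta.2752.3.S1_x_at) had 74688 (log2 16.19) in the WT assay and 48571 (log2 15.57) in the 3'IVT assay. Among the 61115 wheat probe sets, the 3'IVT signal of copy 3 ranked 2 and that of copy 2 ranked 11. Copy 1 (Ta.2752.1.S1_x_at) had only 1621.6 (log2 10.66) in the WT assay, beside 24736 (log2 14.59) in the 3'IVT assay. Its WT signal ranked 4923 and lay 4.52 log2 units under the threshold, at the percentile 91.9 of the array, whereas its 3'IVT signal still ranked 161. The suffix _x_at of all S-lettered probe sets in this cluster marks probes that closely match other sequences on the array, so that signal from one small subunit copy may be shared by another, and the part of this in the values was not tested.

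Carbonic anhydrase also divided by copy. Copy 1 was read by a pair of probe sets, and Ta.5227.1.S1_at had a signal of 76167 (log2 16.22) in the WT assay and 46534 (log2 15.51) in the 3'IVT assay. At Ta.5227.1.S1_x_at the signal was 69844 (log2 16.09) in the WT assay and 39578 (log2 15.27) in the 3'IVT assay. Both probe sets thus lay 0.91 to 1.03 log2 units over the WT threshold and 5.58 to 5.81 over that of the 3'IVT assay. Copy 2 (Ta.5227.2.S1_at) had 2961.5 (log2 11.53) in the WT assay and 20631 (log2 14.33) in the 3'IVT assay. Copy 3 (Ta.5227.3.S1_a_at, whose suffix marks a probe set for several transcripts of one gene) had 4156.8 (log2 12.02) in the WT assay and 24427 (log2 14.58) in the 3'IVT assay. Copies 2 and 3 lay 3.65 and 3.17 log2 units under the WT threshold and were not listed by the study, while in the 3'IVT assay they ranked 255 and 168. Their WT signals were still at the percentiles 96.1 and 97.3 of that array.

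The difference between copies was set beside the same difference in the rest of the array. Within one design cluster, every pair of S-lettered probe sets from different copies was taken in which both were above the 3'IVT threshold, and the copy lower in the WT assay was subtracted from the higher one. In 4135 such pairs from 1006 other clusters the median difference was 1.52 log2 units in the WT assay, with an upper quartile of 2.73. The median absolute difference in the 3'IVT assay was 0.80. Clusters with many copies supplied many of these pairs, and a probe set in such a cluster was used repeatedly. The pairs are therefore not independent, and these values and the shares below are weighted to large clusters. Small subunit copy 2 exceeded copy 1 by 6.16 log2 units in the WT assay and by 0.79 in the 3'IVT assay. Small subunit copy 3 exceeded copy 1 by 5.53 log2 units in the WT assay and by 0.97 in the 3'IVT assay. A larger WT difference was found in 2.35% of the other pairs for copy 2 and in 3.41% for copy 3. The 4 pairs of carbonic anhydrase copy 1 with copies 2 and 3 differed by 4.07 to 4.68 log2 units in the WT assay and by 0.70 to 1.17 in the 3'IVT assay, and 6.46% to 10.3% of the other pairs had a larger WT difference.

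The copies on the same side of this division were closer to each other. Small subunit copy 2 exceeded copy 3 by 0.63 log2 units in the WT assay and was 0.19 below it in the 3'IVT assay. Carbonic anhydrase copy 3 exceeded copy 2 by 0.49 in the WT assay and by 0.24 in the 3'IVT assay. The higher copies are those chosen for their WT signal, and the lower ones were under the WT threshold, so the differences across the division are a description of signals at different probes, not measured ratios of transcripts, and the shares are no test. The 3'IVT signals also stood close to the upper end of that array, since those of the 6 probe sets above both thresholds lay only 0.11 to 0.41 log2 units below the highest wheat signal. Whether differences between copies are compressed in that range was not tested.

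**Figure D2:**
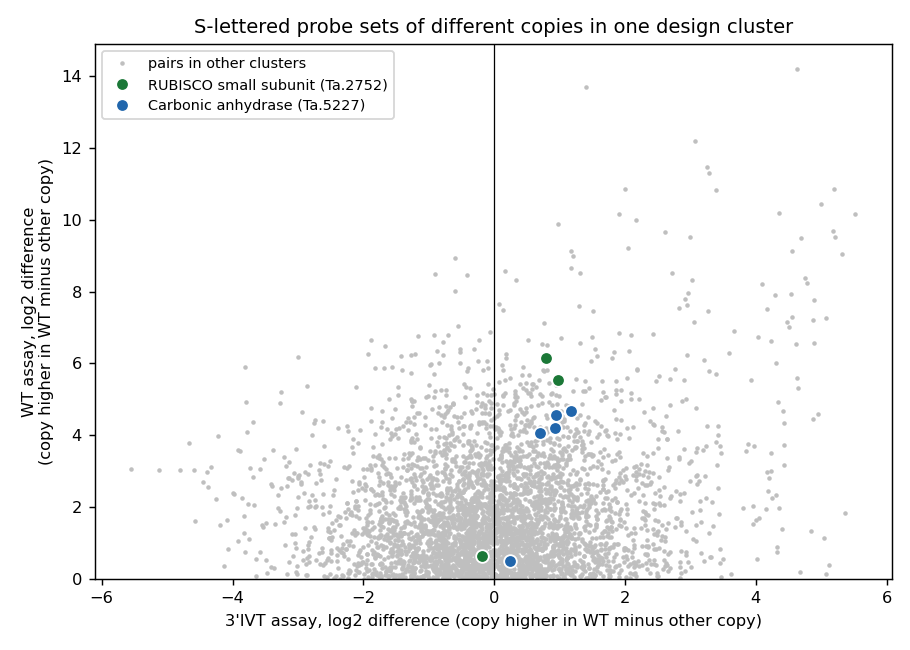
Each point is a pair of S-lettered probe sets from different copies of one design cluster, both above the 3'IVT threshold, with the log2 difference in the WT assay (vertical axis) against that in the 3'IVT assay (horizontal axis), always as the copy higher in WT minus the other. Of the 8 member pairs 6 lie at 4.07 to 6.16 in the WT assay with 3'IVT differences of 0.70 to 1.17, and 2 lie at 0.63 and 0.49 in the WT assay.

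RUBISCO activase was read by a single copy, in both orientations. It is the member cluster that the platform annotation ties to a gene, and all 3 of its probe sets are assigned to LOC732707. The S-lettered _at probe set had a signal of 53490 (log2 15.71) in the WT assay and 42487 (log2 15.37) in the 3'IVT assay. The S-lettered _x_at probe set had 55920 (log2 15.77) in the WT assay and 45125 (log2 15.46) in the 3'IVT assay. They were the members closest above the WT threshold, by 0.52 and 0.58 log2 units, and the _x_at probe set was not listed by the study. The A-lettered probe set had 276740 (log2 18.08) in the WT assay and 98.8 (log2 6.63) in the 3'IVT assay. Its WT signal ranked 66 of 61115 and was the highest of all members, while its 3'IVT signal ranked 30571, next to the median of the array. The A-lettered probe set exceeded the S-lettered _at probe set by 2.37 log2 units in the WT assay and was 8.75 log2 units below it in the 3'IVT assay. The A-lettered 3'IVT signal was 3.07 log2 units under the threshold, so the size of the 3'IVT difference is not a measured ratio of transcripts.

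Small subunit copy 1 was also present in both orientations, and here the S-lettered probe set was under the WT threshold. Its A-lettered Ta.2752.1.A1_at had 10995 (log2 13.42) in the WT assay and 206.2 (log2 7.69) in the 3'IVT assay. The other one, Ta.2752.1.A1_x_at, had 22393 (log2 14.45) in the WT assay and 159.8 (log2 7.32) in the 3'IVT assay. Both were below both thresholds, and Ta.2752.1.A1_x_at was the member closest under the WT threshold, by 0.74 log2 units, but at the percentiles 99.1 and 99.5 of the WT signals they were high for the array. They exceeded Ta.2752.1.S1_x_at in the WT assay by 2.76 and 3.79 log2 units and lay below it in the 3'IVT assay by 6.91 and 7.27.

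The same opposite order was common on the array. Of 189 other pairs of an A-lettered and an S-lettered probe set for one copy, 127 (67.2%) had the A-lettered one higher in the WT assay and lower in the 3'IVT assay, and with the 4 member pairs included the share was 67.9% of 193. In these other pairs the median A minus S difference was 2.58 log2 units in the WT assay (quartiles 0.50 and 4.00) and -2.25 in the 3'IVT assay (quartiles -4.30 and -0.19). The members' WT differences of 2.31 to 3.79 lay within these quartiles. Their 3'IVT differences of -6.91 to -8.84 lay below the lower quartile. These quartiles cover S-lettered probe sets of any 3'IVT signal, whereas those of the members had log2 signals of 14.59 to 15.46. The other pairs with an S-lettered 3'IVT log2 signal above 14.59 had differences of -5.55 to -10.61, a range that includes the members. The position below the quartile therefore does not set the members apart from pairs with a like S-lettered signal. All 3 A-lettered members were under the 3'IVT threshold. The study listed the A-lettered and the S-lettered _at activase probe sets from these same hybridizations, so the position of the activase pairs is a description. The probe sets of small subunit copy 1 were in neither list, and the position of their pairs was not tested. Of the 168 copies with both orientations, 6 had an A-lettered probe set above the WT threshold. The activase copy was the only one whose S-lettered probe sets were above both thresholds. The study had listed its S-lettered _at probe set as hybridizing in both assays, by thresholds of its own on these same hybridizations.

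**Figure D3:**
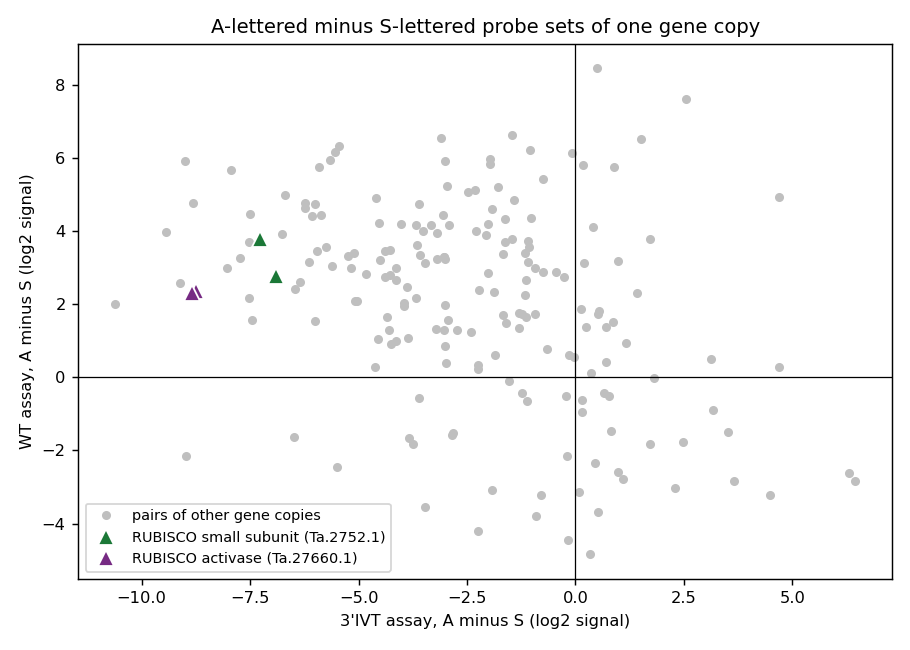
Each point is an A-lettered minus an S-lettered probe set of the same gene copy, as the log2 difference in the WT assay (vertical axis) against that in the 3'IVT assay (horizontal axis), for 193 pairs. The 4 member pairs (triangles) lie in the upper left, at 2.31 to 3.79 in the WT assay and -6.91 to -8.84 in the 3'IVT assay.

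One further small subunit probe set, TaAffx.52923.1.S1_at, carried the letter S but had the pattern of the A-lettered members. Its signal was 68957 (log2 16.07) in the WT assay and 63.4 (log2 5.99) in the 3'IVT assay. This is 0.89 log2 units over the WT threshold, beside 0.64 below the median of the array in the 3'IVT assay, the lowest 3'IVT signal of all members. It was listed by the study as antisense-specific, and for it and the A-lettered activase probe set this position is what the list selected. Below the 3'IVT threshold 0.188% of the 50550 other wheat probe sets were above the WT threshold.

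**Figure D4:**
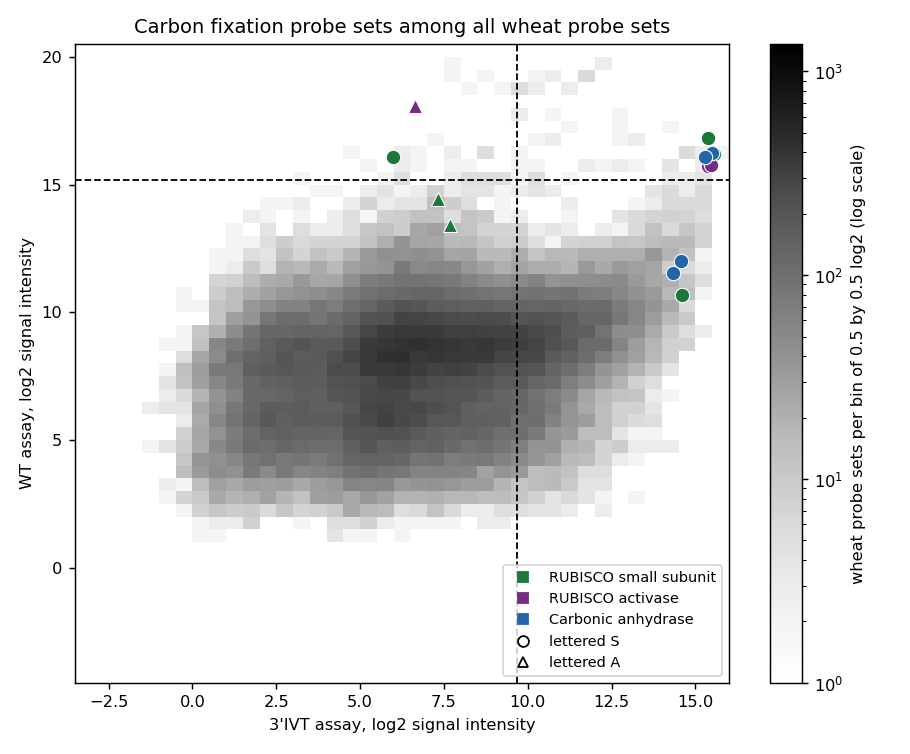
The WT log2 signal (vertical axis) against the 3'IVT log2 signal (horizontal axis), with the number of wheat probe sets in each bin of 0.5 by 0.5 log2 units in grey and the 13 members as coloured points. Dashed lines are the lowest bioB probe sets, and the members stand at the upper right (6), at the right below the WT threshold (3), and at the upper left (4, of which 2 are above the WT threshold).

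Where one design sequence had a unique (_at) and a cross-matching (_x_at) probe set, the signals of the pair were set side by side. For the S-lettered activase sequence the _x_at minus _at difference was 0.06 log2 units in the WT assay and 0.09 in the 3'IVT assay. For carbonic anhydrase copy 1 it was -0.13 in the WT assay and -0.23 in the 3'IVT assay, and for the A-lettered sequence of small subunit copy 1 it was 1.03 in the WT assay and -0.37 in the 3'IVT assay. In 669 other such pairs above the 3'IVT threshold the median absolute difference was 0.88 in the WT assay and 0.25 in the 3'IVT assay, and in all 3034 other pairs it was 1.08 in the WT assay and 0.64 in the 3'IVT assay.

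Probe sets with like 3'IVT signals were used to place the WT signals. In the 3'IVT range of the 6 members above both thresholds, 15.27 to 15.57, lay 16 other wheat probe sets, of which 6 (37.5%) were above the WT threshold, with a median WT log2 signal of 14.41 (quartiles 13.30 and 15.42). The 6 members had 15.71 to 16.82, but 5 of them had been chosen for it. In the range of the 3 members that passed in the 3'IVT assay alone, 14.33 to 14.59, lay 92 other probe sets, of which 8 (8.70%) were above the WT threshold, with a median of 12.15 (quartiles 10.54 and 13.12). Small subunit copy 1 had a WT log2 signal of 10.66 and carbonic anhydrase copies 2 and 3 had 11.53 and 12.02. These 3 were grouped here for a WT signal under the threshold, so their place in this range is a description too.

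Other nuclear genes of the Calvin-Benson cycle were looked up by annotated name for 3 enzymes only, which gave 4 probe sets, all counted here. The remaining enzymes of the cycle are not covered. Above the WT threshold were 0 of the 4, beside 0.367% of all wheat probe sets, and above the 3'IVT threshold 3, beside 17.3%. So few probe sets pass in the WT assay that a count of 0 of 4 does not set these genes apart. Phosphoribulokinase, which regenerates the RUBISCO substrate, had 6029.5 (log2 12.56) in the WT assay and 41984 (log2 15.36) in the 3'IVT assay (Ta.23158.1.S1_at). Its 3'IVT signal was thus close to those of the S-lettered activase probe sets, and its WT log2 signal was 2.63 units under the threshold. Phosphoglycerate kinase, which uses ATP in the reduction phase of the cycle, had log2 signals of 13.73 in the WT assay and 14.62 in the 3'IVT assay (Ta.2307.1.S1_at). Fructose-1,6-bisphosphatase, which removes a phosphate in the regeneration phase, had log2 signals of 12.93 in the WT assay and 12.83 in the 3'IVT assay at Ta.439.1.S1_at, while its TaAffx.106041.1.S1_at had 5.65 in the WT assay and 6.45 in the 3'IVT assay.

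The plastid-encoded large subunit, the partner of these nuclear genes, was read by 7 listed probe sets, all above the WT threshold and 4 above both. On the log2 scale these 4 lay at 15.47 to 16.61 in the WT assay and at 14.95 to 15.55 in the 3'IVT assay, a range that overlaps that of the 6 members above both thresholds. The 3 above the WT threshold alone had WT log2 signals of 19.24 to 19.60, higher than the 18.08 of the A-lettered activase probe set and the 16.07 of TaAffx.52923.1.S1_at. Of these, TaAffx.128414.229.A1_x_at and TaAffx.128414.24.A1_s_at were A-lettered and TaAffx.128414.6.S1_at was S-lettered. Among the 4 above both, TaAffx.128414.1.A1_x_at was A-lettered. Its 3'IVT log2 signal was 15.27, whereas all A-lettered members were under the 3'IVT threshold. Apart from the unlisted S-lettered _x_at activase probe set, both groups were selected by the study on WT signal, so the comparison is a description.

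The 5 wheat probe sets nearest in pattern to the 6 members above both thresholds were found by the distance over the 2 log2 signals from the members' median point of 16.14 in the WT assay and 15.42 in the 3'IVT assay. A likeness over 2 arrays says only that both signals are close. The nearest was photosystem II protein Z (TaAffx.128712.18.S1_s_at), with 16.15 in the WT assay and 15.49 in the 3'IVT assay, at a distance of 0.07 log2 units. The RUBISCO large subunit followed with TaAffx.128414.1.A1_x_at at 0.38, TaAffx.128414.215.S1_s_at at 0.48 and Ta.24976.1.S1_x_at at 0.49, and chloroplast ribosomal protein S7 (TaAffx.3720.4.S1_s_at) lay at 0.42. The members themselves lay up to 0.68 from that point, so all 5 were as near to it as some members.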

How the data were processed

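Mixed RNA was read on 1 array per assay. The deposited values are linear signal intensities from MAS5, the program named in the labels. The authors' MAS5 step corrects for background and mismatch probes and brings both arrays to a like average, here 2% trimmed means of 500.2 (WT) and 500.3 (3'IVT). Such scaling can raise the bright signals of an array with few hybridizing probe sets, and its part in the WT signals was not tested. The study's own lists rest on RMA summarized values and Present calls, and only their names were used. Of 61290 probe sets, 111 controls and 64 reporter genes were left out. The log2 of each signal was taken with no further normalization. The number of arrays limits the precision, and no p-value was computed. The small subunit members are Ta.2752.1.A1_at, Ta.2752.1.A1_x_at, Ta.2752.1.S1_x_at, Ta.2752.2.S1_x_at, Ta.2752.3.S1_x_at and TaAffx.52923.1.S1_at. Those of the activase are Ta.27660.1.A1_at, Ta.27660.1.S1_at and Ta.27660.1.S1_x_at, and those of carbonic anhydrase Ta.5227.1.S1_at, Ta.5227.1.S1_x_at, Ta.5227.2.S1_at and Ta.5227.3.S1_a_at. Functions came from the study's lists, applied to whole clusters, and from the platform annotation, which names 1273 probe sets, of which 1272 matched RefSeq (assembly IWGSC CS RefSeq v2.1). Members, lists and comparisons were chosen with earlier results of these data known, and every member is named. Pairs within clusters were added after seeing the signals. Alternatives were other bioB thresholds, quantile normalization, a spike-in shift, a pseudocount, a signal filter, and leaving out shared probe sets or counting copies once. The strand-specific RT-PCR of the study is not used here. On simulated signals of 61115 probe sets, counting found the 100, 200 and 300 placed above both thresholds, the WT threshold alone and the 3'IVT threshold alone. Python 3.11.15, numpy 2.4.6 and pandas 2.3.3 were used.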

Additional observations from a re-analysis of the deposited data

Results flagged for a closer look

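The A minus S difference of a gene copy had opposite signs on the WT and 3'IVT arrays for all 4 member pairs, and with 1 array per assay this difference between the assays was not tested. For RUBISCO activase, the A-lettered minus the S-lettered _at probe set was 2.37 log2 units in the WT assay and -8.75 in the 3'IVT assay, and against the S-lettered _x_at probe set it was 2.31 in the WT assay and -8.84 in the 3'IVT assay. For copy 1 of the RUBISCO small subunit, Ta.2752.1.A1_at minus Ta.2752.1.S1_x_at was 2.76 in the WT assay and -6.91 in the 3'IVT assay, and for Ta.2752.1.A1_x_at it was 3.79 in the WT assay and -7.27 in the 3'IVT assay. The same order was found in 67.2% of the 189 other pairs on the array. All 3 A-lettered probe sets were under the 3'IVT threshold, so the sizes of the 3'IVT differences are not measured ratios.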

How the results depend on the processing

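Of 37 values recomputed under the alternatives, 15 were labelled the same, 18 moved and 4 changed sign. A log2 or percentile value was the same when it stayed within the spread. A count has no spread and was labelled by the ratio of the counts, so that 7 copies beside 9 members above the 3'IVT threshold passed as the same. No paired analysis was possible because each assay had 1 array, and no array could be left out. With the median bioB probe set as the threshold, 4 members were above the WT threshold and 3 above both, and the median excess became -0.37 log2 units in the WT assay and 4.47 in the 3'IVT assay. With the highest bioB probe set, 2 were above the WT threshold and 1 above both, and the excesses became -0.82 in the WT assay and 4.06 in the 3'IVT assay. Here the higher threshold is the cause. At both, 9 members stayed above the 3'IVT threshold. Without shared probe sets, 6 members are left, of which 4 were above the WT threshold, 3 above that of the 3'IVT assay and 2 above both. Their median 3'IVT excess was 1.32, their WT minus 3'IVT difference 3.22 and their 3'IVT percentile 81.3. Leaving out shared probe sets had lowered the number of members above the 3'IVT threshold from 9 to 3, so these medians describe a different mix of members. Counting each of 8 copies once, as above when any of its probe sets was, gave 5 above the WT threshold. The WT excess was then 0.93, from the mean signal of each copy. Both values merge the A-lettered and S-lettered probe sets of the activase copy and of small subunit copy 1. The median WT minus 3'IVT difference of the members, 0.71 log2 units on the deposited scale, has no settled sign. It was -2.16 after quantile normalization and -4.76 after lowering WT signals by 5.47, the median WT minus 3'IVT difference of the spike-ins. Quantile normalization also gave a 3'IVT excess of 5.64 and moved the A minus S difference of the activase copy to 1.42 in the WT assay and -10.15 in the 3'IVT assay, with the signs kept. Ranking only probe sets above an array median gave a WT percentile of 99.6, against 99.7. Order within an array is the same under each scaling. The main limit is the single hybridization per assay.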
